A study of Mus musculus with 12 samples.

Results

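The 10 keratins examined here were Krt7, Krt8, Krt18 and Krt19 of simple epithelia and carcinomas, Krt5 and Krt14 of the basal skin layer, Krt6a and Krt17 of activated skin, and Krt1 and Krt10 of the upper skin layers. They were chosen by name from 35944 annotated mouse genes, and each was measured as the sum over its transcripts in 12 tumours. A further 44 genes of the annotation carry keratin names. In total, 7 of the 10 members had at least 10 reads in at least 3 libraries, as did 15459 of all genes, and Krt5, Krt6a and Krt1 did not.

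The tumours arose from 100000 cells of 4T1, a mammary carcinoma line that comes from the BALB/c strain, placed under the skin of the right flank. The hosts were female BALB/c mice aged 6 to 8 weeks. From day 5, all mice received injections of 3 µg of extracellular vesicles (EVs) around the tumour, repeated every 2 days, and the tumours were taken on day 21. The EVs came from cultured mouse endothelial cells and had been electroporated with a miRNA mimic. The 4 groups of 3 tumours were ctrl, whose EVs carried the worm miRNA miR-67, then miR-142-5p and miR-183-5p, with miR-222-3p as the fourth. No group went without EVs, and the tumours, which all came from 1 cell line, also held host cells. The right flank is the only site given for the injected cells. The labels number the tumours and not the mice, and p-values measure the spread between these tumours.

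Keratins are the intermediate filament proteins of epithelial cells. A filament is built from pairs of an acidic type I and a basic type II keratin, and the partners are expressed together in a set way in each epithelium. Krt8 (type II) and Krt18 (type I) form the first pair of simple epithelia and are kept in most carcinomas, where Krt7 (type II) and Krt19 (type I) mark glandular and ductal cells. Krt5 (type II) pairs with Krt14 (type I) in dividing basal keratinocytes, Krt1 (type II) with Krt10 (type I) in differentiating ones, and Krt6a (type II) and Krt17 (type I) come on in wounded or activated skin.

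Libraries held between 20285968 and 27021401 estimated reads. Tumour 3 of miR-183-5p and all 3 of miR-222-3p stood apart from the other 8 libraries by their reads of the transcript Gm28661. In them, it held under 1% of the summed reads of Gm28661 and mt-Co2, which is not a share of the whole library. The treatment and this library set therefore cannot be told apart for miR-222-3p. The tumour miR-183-5p 3 also carried skeletal muscle RNA, with a summed level of 344 TPM over 6 muscle genes against a median of 15.9 TPM over all tumours, and miR-142-5p tumour 3 carried B-cell RNA, with a summed level of 346 TPM over 6 lymphocyte genes against a median of 21.4 TPM. TPM is the level per unit of transcript length, scaled to a fixed sum in each library.

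The tumours expressed the simple keratins at high levels. Krt18 had a mean level of 804 TPM ± 106 (SD, n = 12) and ranked 175 among all genes. Krt8 had 545 TPM ± 70.6 and ranked 245, and Krt7 had 235 TPM ± 65.8 and ranked 588. Together, Krt7, Krt8 and Krt18 made up between 96.2% and 98.3% of the summed TPM of all keratin genes. Fewer cells that express a keratin and less of its RNA per cell cannot be told apart in such bulk samples.

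**Figure D1:**
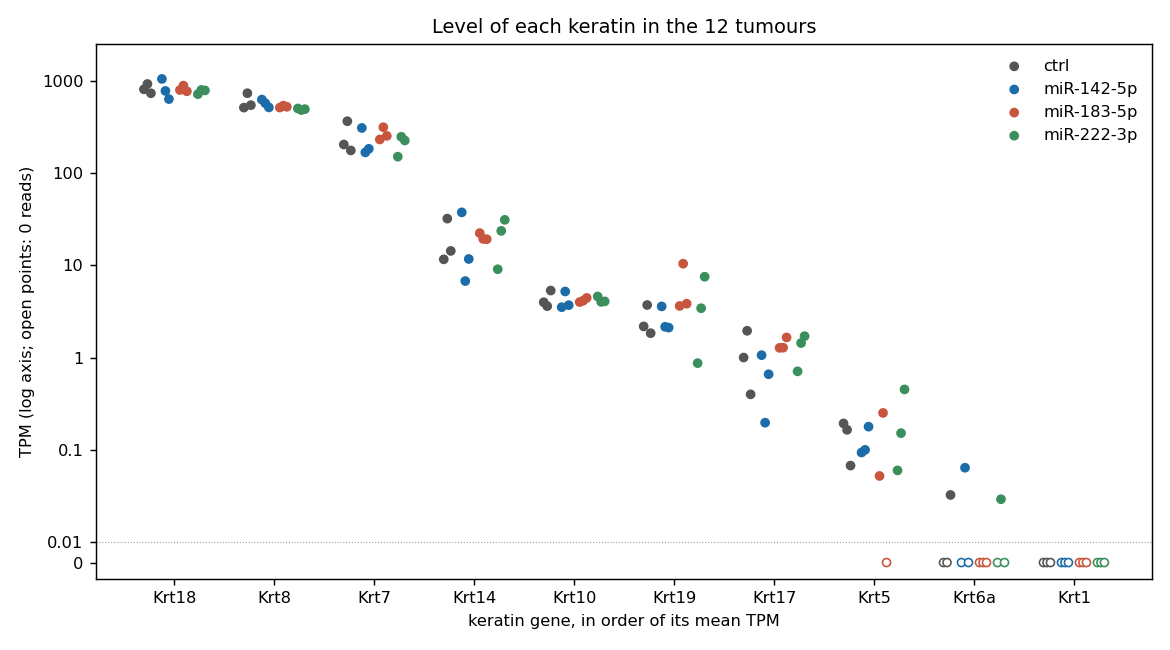
TPM of the 10 keratins (log axis) in 12 tumours, 1 point per tumour and colour per group, with open points at the bottom for tumours with 0 reads. Krt18, Krt8 and Krt7 lie above 150 TPM in each tumour, Krt14 lies between 6.74 and 37.4 TPM, and Krt1 is at 0 in the 12 tumours.

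Most steps in the order of levels were the same in every tumour. Krt18 exceeded Krt8, Krt8 exceeded Krt7, Krt7 exceeded Krt14 and Krt14 exceeded Krt10 in 12 of 12 tumours. Krt10, with 4.21 TPM ± 0.579, and Krt19, with 3.77 TPM ± 2.66, could not be ordered, since Krt10 was the higher in 8 of 12 tumours. Both exceeded Krt17, which had 1.11 TPM ± 0.542, and Krt17 exceeded Krt5 in 12 of 12 tumours. The fourth keratin of the simple class, Krt19, therefore lay far below the other members of its class.

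Type II and type I keratins were close to balanced. The summed TPM of the type II members, almost wholly Krt8 and Krt7, was 0.938 ± 0.0873 (SD, n = 12) times that of the type I members, almost wholly Krt18. The lowest ratio was 0.854, in a miR-142-5p tumour, and the highest was 1.14, in a ctrl tumour. By group, the mean ratio was 0.987 ± 0.139 in ctrl and 0.953 ± 0.109 in the miR-142-5p tumours (SD, n = 3). It was 0.932 ± 0.0357 after miR-183-5p and 0.879 ± 0.0128 after miR-222-3p. These differences did not pass an exact permutation test, with two-sided p between 0.3 and 0.8, where 3 against 3 tumours allow no p below 0.1. The balance depends on how Krt7 transcripts are counted. The transcript Krt7-202, which the annotation lists as a retained intron, took 51.4% of the reads of Krt7 on average and 36.2% of its TPM. With protein-coding transcripts alone, chosen as an alternative after the data were seen, Krt7 had 148 TPM ± 44.9. The ratio of type II to type I was then 0.838 ± 0.0822. A protein-coding Krt7 transcript with only 6.99% of the Krt7 reads on average held 37.2% of the Krt7 TPM. The other protein-coding transcript took 41.5% of the reads and held 25.4% of the TPM. Both ratios of type II to type I therefore rest in part on a transcript with few of the Krt7 reads.

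Krt18 exceeded Krt8 in TPM by a factor of 1.48 ± 0.156 (SD, n = 12). The Krt18 to Krt8 ratio of TPM lay between 1.23 and 1.67 over the tumours. In reads, without the correction for length, the ratio was 1.04 ± 0.110. Both genes are on chromosome 15 (GRCm38), with Krt8 at 101996698 to 102004482 on the minus strand and Krt18 at 102028180 to 102032027 on the plus strand. Each is represented by 1 protein-coding transcript. The processed pseudogene Krt8-ps is 98.6% identical to Krt8 along the aligned part, and it was assigned 2.47 reads over the 12 libraries against 191140 for Krt8.

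Krt8, the type II partner of the simple pair, had 511, 732 and 543 TPM in the 3 ctrl tumours. In miR-142-5p it had 625, 570 and 513 TPM. In miR-183-5p it had 512, 537 and 522 TPM. In miR-222-3p it had 500, 481 and 492 TPM. The 3 miR-222-3p tumours held the lowest TPM of the 12, below each ctrl tumour. In counts normalised by the model, however, the 2 groups overlapped, and the log2 fold change of miR-222-3p against ctrl was -0.28 (SE 0.15, 95% interval -0.58 to 0.02, adjusted p = 1 by DESeq2, unadjusted p = 0.0665). Against ctrl, Krt8 had a log2 fold change of -0.16 (SE 0.15) in miR-183-5p and -0.04 (SE 0.15) in miR-142-5p. Neither passed the test. Here the 95% interval of the miR-142-5p difference ran from -0.34 to 0.26 on the log2 scale.

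Krt18, the type I partner, had 806, 921 and 731 TPM in ctrl. It had 1046, 775 and 632 TPM in miR-142-5p. The miR-183-5p tumours had 792, 885 and 768 TPM, and in miR-222-3p it had 715, 794 and 784 TPM. The highest and the lowest tumour of all 12 were both in miR-142-5p, and each group overlapped the others. Against ctrl, its log2 fold change was 0.02 in the miR-142-5p tumours, 0.01 after miR-183-5p and -0.11 after miR-222-3p, each with an SE of 0.21.

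Krt7, a type II keratin of glandular epithelium, had 203, 364 and 175 TPM in ctrl. In miR-142-5p it had 308, 167 and 182.7 TPM. It had 231, 313 and 252 TPM in miR-183-5p, and 150, 247 and 225 TPM in miR-222-3p. The groups overlapped, and the highest tumour, in ctrl, had 2.42 times the level of the lowest, in miR-222-3p. Its log2 fold changes against ctrl, in the order of the groups just given, were -0.14, 0.13 and -0.25, each with an SE of 0.31.

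Krt19, a small type I keratin of ducts, was the most variable simple keratin. It had 2.17, 3.71 and 1.84 TPM in ctrl and 3.58, 2.15 and 2.11 TPM in miR-142-5p. The miR-183-5p tumours had 3.62, 10.4 and 3.83 TPM. In miR-222-3p it had 0.870, 3.42 and 7.51 TPM, so the lowest tumour of all 12 and the second highest were in the same group. The counts were small, from 12 to 179 reads, and on average 35.5% of them were assigned to Krt19-203, a processed transcript without a coding sequence. Of the TPM, Krt19-203 held 51.7% on average, from 25.1% to 76.1% over the tumours, and the protein-coding Krt19-201 held 44.6%. The miR-183-5p tumours had a log2 fold change of 1.23 against ctrl (SE 0.65, 95% interval -0.04 to 2.51, unadjusted p = 0.0578 and adjusted p = 1 by DESeq2). This value rested on miR-183-5p tumour 2, for without it the log2 fold change was 0.53. In miR-222-3p the log2 fold change was 0.65 (SE 0.65), and it became -0.27 when 1 tumour of the comparison was left out.

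Krt14, the type I keratin of basal keratinocytes, stood apart among the skin keratins. It was present in each of the 12 tumours, from 139 to 864 reads, and which cells held its RNA was not tested. It had 11.6, 32.0 and 14.3 TPM in ctrl. In miR-142-5p it had 37.4, 6.74 and 11.7 TPM, which are the highest value and the lowest value of the series. In miR-183-5p it had 22.3, 19.3 and 19.2 TPM, and in miR-222-3p it had 9.05, 23.6 and 31.1 TPM. The SD within a group was 1.79 TPM in miR-183-5p and between 11.1 and 16.5 TPM in the other 3 groups; this difference in spread was not tested. The mean levels of the groups lay between 18.6 and 21.2 TPM, and the log2 fold changes against ctrl were 0.02, 0.10 and 0.18 in the order given above, each with an SE of 0.71. Such an SE leaves a wide interval, from -1.38 to 1.41 for miR-142-5p.

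The partner of Krt14 was almost absent. Krt5 had between 0 and 18 reads per library, with 0 in miR-183-5p tumour 3 and 10 or more in 1 library, miR-222-3p tumour 3. Its mean level was 0.147 TPM ± 0.119 (SD, n = 12) against 19.9 TPM ± 9.80 for Krt14. In a library, 3 reads of Krt5, taken here as the smallest number that can be told from none, correspond to between 0.0752 and 0.101 TPM. Krt14 shares 91.0% identity with Krt17 over 756 bases and 87.4% with Krt16 over 1290 bases, but neither had reads near those of Krt14, since Krt17 had at most 46 reads and Krt16 at most 55. The protein-coding transcript Krt14-201 held 93.8% of the Krt14 reads on average.

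Krt17, the type I keratin of activated keratinocytes, had between 4 and 46 reads. It had 0.9997, 1.95 and 0.399 TPM in ctrl and 1.06, 0.197 and 0.659 TPM in miR-142-5p. The miR-183-5p tumours had 1.27, 1.28 and 1.65 TPM. In miR-222-3p it had 0.708, 1.44 and 1.71 TPM. The 3 miR-183-5p tumours were above the 3 miR-142-5p tumours without overlap, with a log2 fold change of 1.12 (SE 0.66, unadjusted p = 0.0901, adjusted p = 0.758 by DESeq2). Krt6a, its type II companion in activated skin, had 0 reads in 9 tumours and at most 2 reads in the others, which is below the floor of 3 reads. Krt6b, a near copy of Krt6a with 96.98% identity over 1193 bases, was assigned 0 reads.

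Krt10, the type I keratin of the upper skin layers, was the least variable of the low keratins. It had 3.97, 3.60 and 5.32 TPM in ctrl and 3.51, 5.20 and 3.69 TPM in miR-142-5p. The miR-183-5p tumours had 3.99, 4.13 and 4.42 TPM, and those of miR-222-3p had 4.59, 4.01 and 4.06 TPM. Over the tumours, its coefficient of variation was 13.8%, against the 13.0% that counting error alone gives at 51 to 74 reads. For Krt14 the coefficient of variation was 49.4% against 5.07% from counting, and for Krt19 it was 70.7% against 15.5%. The log2 fold changes of Krt10 against ctrl were -0.04, -0.01 and -0.02, each with an SE of 0.27. Its type II partner Krt1 had 0 reads in all 12 tumours, which allows up to 3 reads, or 0.0830 to 0.112 TPM, in a library. Krt10 thus appeared without Krt1, as Krt14 did without much Krt5.

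In none of the 6 pairwise comparisons did a member pass an adjusted p of 0.05 by DESeq2. The same count of 0 of 7 was found by edgeR and by limma, which called 0 of all genes. Over all genes, the share called by DESeq2 was 0.00649% for miR-142-5p against ctrl, 0% for miR-183-5p against ctrl and 0.026% for miR-222-3p against ctrl. With miR-183-5p set against the other miRNAs it was 0.0519% (miR-142-5p) and 0.0324% (miR-222-3p), and between these last it was 0.0389%. Calls were thus rare in the whole transcriptome, and 0 of 7 does not set the keratins apart.

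At an unadjusted p of 0.05 the count was also 0 of 7 in each comparison. The share of all genes at that level was 3.56%, 3.22% and 2.29% against ctrl, in the order used above. Between miR-183-5p and miR-142-5p it was 7.95%, between miR-183-5p and miR-222-3p it was 3.24%, and between the remaining pair of miRNAs it was 3.59%. Against ctrl, 0 of 7 members had groups that did not overlap in normalised counts, where all genes gave 6.07%, 9.17% and 5.5% in the same order. Between miR-183-5p and miR-142-5p it held for 1 of 7, Krt17, and for 12.3% of all genes. Against ctrl, the median log2 fold change of the 7 members was -0.04, 0.10 and -0.02 in that order, and over all genes it lay between -0.011 and -0.0050.

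**Figure D2:**
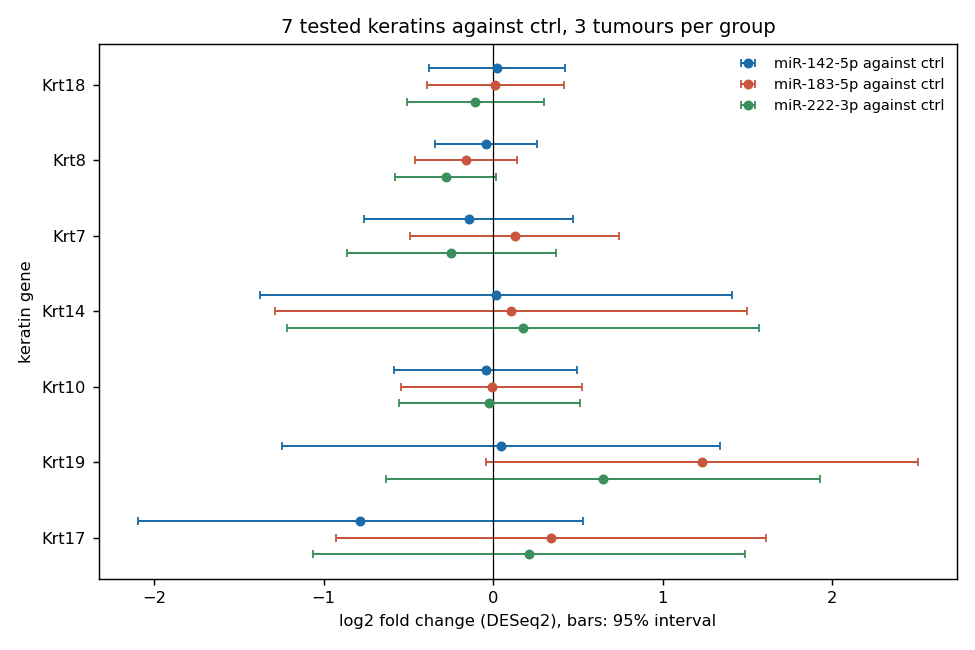
Log2 fold change against ctrl with 95% intervals for the 7 tested keratins, from a DESeq2 fit with 3 tumours per group. Each interval includes 0, and the intervals of Krt14, Krt19 and Krt17 are several times wider than those of Krt8 and Krt18.

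A tumour in miR-142-5p weighed heavily on the comparisons with that group. The tumour miR-142-5p 1 had the highest Krt18 and Krt14 of all 12. Without it, 4 of 7 members had an unadjusted p under 0.05 between miR-183-5p and the rest of miR-142-5p, with log2 fold changes of 1.20 for Krt14, 1.77 for Krt17, 1.55 for Krt19 and 0.66 for Krt7, but the adjusted p by DESeq2 was 0.179 or higher. Calls also rose over all genes in that fit, to 12.3% at an unadjusted p under 0.05 and from 8 to 415 genes (2.69%) by adjusted p, none of them a member. The 4 members vary together over the tumours and are not separate pieces of evidence. In miR-142-5p against ctrl, the log2 fold change of Krt14 moved from 0.02 to -1.10 without this tumour (adjusted p = 0.591 by DESeq2), where 5.74% of all genes had an unadjusted p under 0.05 and 0.486% were called.

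The tumours differed from each other in a way that was shared between keratins. Over the 12 tumours, log2 normalised counts of Krt8 and Krt18 were correlated with a Pearson r of 0.76 (permutation p = 0.0038) and a Spearman rho of 0.74 (permutation p = 0.00785). For Krt7 and Krt19, r was 0.77 (permutation p = 0.0030) and rho was 0.83 (permutation p = 0.00147). For Krt18 of the simple class and Krt14 of the basal class, r was 0.67 (permutation p = 0.0166) and rho was 0.70 (permutation p = 0.0136). Adjusted over these 3 pairs, the permutation p of r was 0.0057, 0.0057 and 0.0166. Krt5, Krt6a and Krt1 had too few reads for their pairs. Without the 2 tumours farthest from the median of the first gene, r was 0.68, 0.76 and 0.51 in the same order, and the last no longer passed (permutation p = 0.127), so it rests on those tumours. With each group centred on its mean, r was 0.84, 0.78 and 0.70. Within the 8 libraries of the larger set, it was 0.78, 0.77 and 0.68.

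All 21 pairs of the 7 keratins were compared. The 15 pairs without Krt10 had a positive r. The highest was 0.84 between Krt7 and Krt14 (rho 0.79), followed by 0.82 between Krt7 and Krt18 (rho 0.78) and 0.80 between Krt14 and Krt17 (rho 0.75), each with a permutation p of 0.00798 after adjustment over the 21 pairs. Without the 2 farthest tumours these were 0.78, 0.81 and 0.67, and within the larger library set 0.86, 0.81 and 0.81. Between Krt14 and Krt8, r was 0.46 (adjusted permutation p = 0.189), and it was -0.11 without the 2 farthest tumours. The 6 pairs with Krt10 had a negative r, between -0.58 and -0.13, and none passed after adjustment. Their sign was not stable, since without the 2 farthest tumours r became 0.19 with Krt17 and 0.59 with Krt8, for which rho over the 12 tumours was 0.05.

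**Figure D3:**
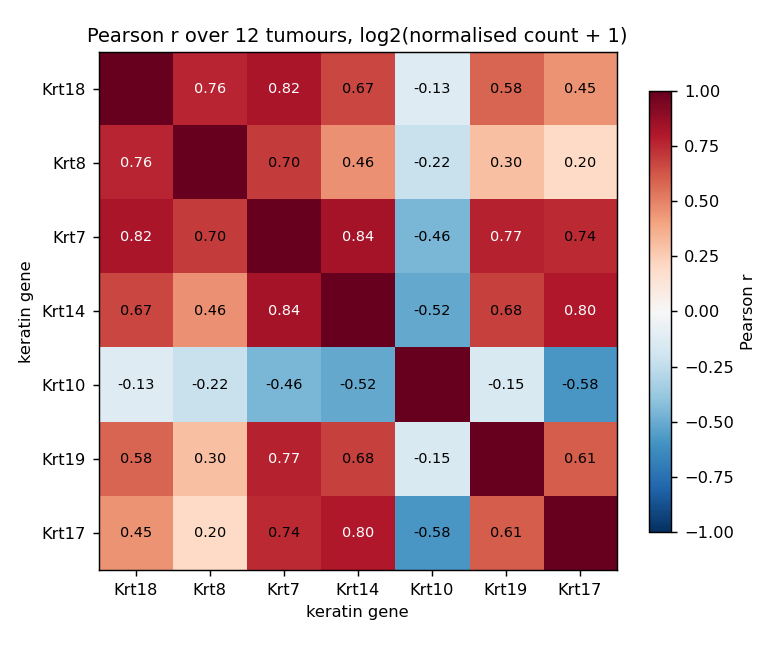
Pearson r between log2 normalised counts of the 7 tested keratins over 12 tumours, coloured from blue (-1) to red (1). Krt7 has an r of 0.696 or more with Krt18, Krt8, Krt14, Krt19 and Krt17, and the row of Krt10 is negative throughout, although its r with Krt17 and with Krt8 turns positive without the 2 farthest tumours.

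Among the 12460 genes with a mean normalised count of at least 50, the patterns most like that of Krt8 were Kcnn4 (r 0.89, rho 0.90), a calcium-activated potassium channel, then Ccdc68 (r 0.85, rho 0.76) and Perp (r 0.82, rho 0.64), a desmosomal membrane protein. Those most like Krt14 were Sec61g (r 0.97, rho 0.97), a subunit of the channel that moves proteins into the endoplasmic reticulum, 2310007B03Rik (r 0.93, rho 0.92) and Thbs2 (r 0.93, rho 0.86), a matrix protein of the thrombospondin family. Those most like Krt10 were Abcc3 (r 0.88, rho 0.90), a transporter, Mex3a (r 0.87, rho 0.92), an RNA-binding protein, and Hoxd8 (r 0.86, rho 0.77). These are the highest of many values over 12 tumours and carry no test.

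Krt14 also varied with the type I collagens. The summed TPM of 6 fibroblast genes ranged from 188 to 936 TPM, and Col1a1 and Col1a2 made up 85.0% of it on average. Krt14 correlated with it on the log2 scale with r 0.86 (permutation p = 0.000400, adjusted permutation p = 0.0064) and rho 0.68 (permutation p = 0.0181, adjusted permutation p = 0.196) in a family of 16 relations, 8 cell type lists with Krt8 and with Krt14. This family was chosen after the data were seen. Without the 2 tumours farthest in the fibroblast sum r was 0.75, within the larger library set it was 0.89 and with centred groups it was 0.94. No tumour had a sum between 317 and 545 TPM. Krt14 lay between 6.74 and 14.3 TPM below this gap and between 19.2 and 37.4 TPM above it. The highest Krt14, in miR-142-5p tumour 1, was at 545 TPM, the lowest sum above the gap. The r thus rests largely on the step across the gap, and a relation on either side of it was not tested. Of the 6 genes, 5 had a positive r with Krt14, led by the collagens Col1a2 (0.89) and Col1a1 (0.88). Dcn, a matrix proteoglycan, had 0.31, and Pdgfra, a receptor of fibroblasts, had -0.73, so the list did not vary as a whole with Krt14. The other 15 relations did not pass after adjustment. Among them, the sums of 6 macrophage genes (r -0.57, adjusted permutation p = 0.279) and of 5 endothelial genes (r -0.64, adjusted permutation p = 0.200) ran the other way, and each of these genes had a negative r with Krt14. The sum of 14 epithelial carcinoma genes had r 0.52 with Krt14 (adjusted permutation p = 0.341) and rho 0.60 (adjusted permutation p = 0.196). Of its 13 tested genes, 11 had a positive r with Krt14. With the fibroblast sum, Krt8 had an r of 0.01 and a rho of -0.18. The part of the fibroblast content of the tumours in the Krt14 level was not tested.

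**Figure D4:**
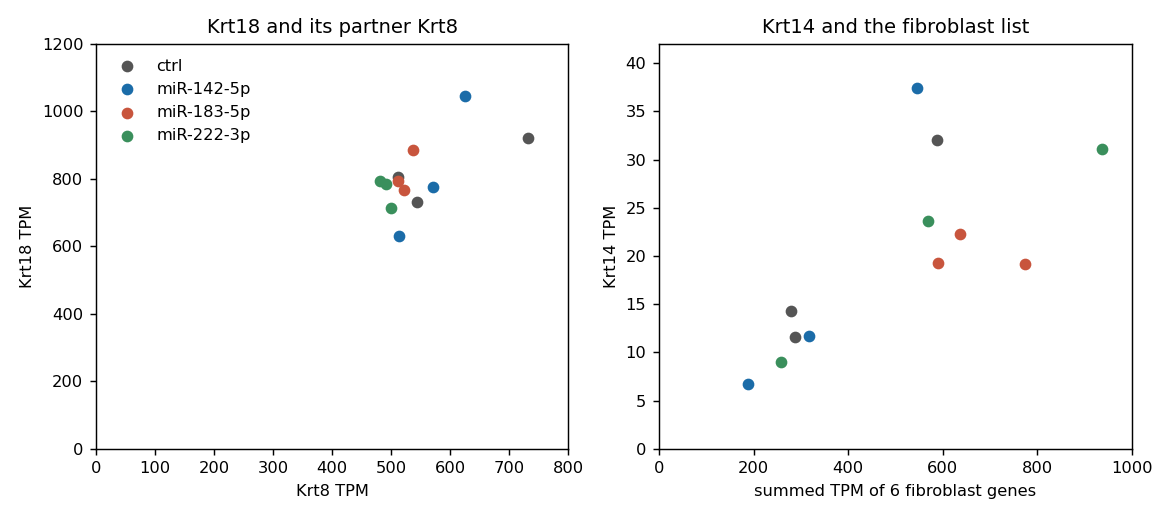
Left, Krt18 TPM against Krt8 TPM; right, Krt14 TPM against the summed TPM of 6 fibroblast genes, with 1 point per tumour and colour per group. On the right, tumours with a low fibroblast sum have between 6.74 and 14.3 TPM of Krt14, and the others have 19.2 TPM or more.

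Other genes of skin were mostly low. Of 44 further keratin genes, 16 had 0 reads in all tumours and 8 passed the filter. Krt80, a type II keratin found in many epithelia, was the highest with 7.70 TPM, followed by Krt13 with 1.53 TPM and Krt15 with 1.17 TPM. None of the 8 was called. In miR-222-3p against ctrl, Krt13 had a log2 fold change of -1.65 (SE 0.69, unadjusted p = 0.0166) and Krt15 of -1.07 (SE 0.47, unadjusted p = 0.0211), both with an adjusted p of 1 by DESeq2. Krt13 had from 3 to 33 reads per library.

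Of 15 genes of the cornified envelope and keratinocyte differentiation, 6 passed the filter. The highest were Lgals7, a galectin of stratified epithelia, with 32.5 TPM, Tgm1, a transglutaminase that crosslinks the envelope, with 5.88 TPM, and Sbsn with 2.55 TPM. Dmkn had a log2 fold change of -2.11 in miR-142-5p (SE 1.06, unadjusted p = 0.0453, adjusted p = 1 by DESeq2) at no more than 13 reads. Trp63, the transcription factor that defines basal keratinocytes, had between 0.102 and 0.965 TPM. Sfn, a 14-3-3 protein of epithelial cells, had 24.1 TPM, and Klf5, a Krüppel-like transcription factor, had 23.0 TPM. Of 9 annotated hair follicle genes 1 passed the filter, Padi3, at 4.60 TPM. None of these genes was called against ctrl.

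RNA of the proteins that keratin filaments attach to was uneven in level. Of 20 desmosome and linker genes, 16 passed the filter, and 0 were called in any comparison with ctrl. Itga6, an integrin subunit of hemidesmosomes, had 135 TPM, Jup (plakoglobin) had 134 TPM and Pkp3, a plakophilin, had 81.5 TPM. The Dsg and Dsc genes of the list, which encode desmosomal cadherins, were low. Their mean levels ran from 0.00384 TPM (Dsc1) to 1.18 TPM (Dsc2). The median log2 fold change of the 16 genes was 0.09 with miR-142-5p, -0.02 with miR-183-5p and -0.05 with miR-222-3p. Jup had a log2 fold change of 0.27 in miR-142-5p (SE 0.15, unadjusted p = 0.0599). Eppk1, the linker protein epiplakin, had -0.50 in miR-183-5p (SE 0.20, unadjusted p = 0.0141) and -0.55 in miR-222-3p (SE 0.20, unadjusted p = 0.00685), with an adjusted p of 1 by DESeq2 in both. These comparisons share the ctrl tumours.

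The epithelial keratins stood beside a strong mesenchymal filament. Vim, which encodes vimentin, had 2336 TPM on average, 4.33 ± 0.482 times the level of Krt8 (SD, n = 12). Its ratio to Krt8 was 3.79 ± 0.439 in ctrl and 4.15 ± 0.168 with miR-142-5p (SD, n = 3). It was 4.76 ± 0.336 with miR-183-5p and 4.61 ± 0.237 with miR-222-3p, and the tumours of both these groups lay above the ctrl tumours without overlap. The exact permutation p was 0.1 for both, the smallest that 3 against 3 tumours allow, and 0.45 after adjustment over 9 ratio tests. This ratio was chosen after the data were seen, and host cells also express Vim. Of 13 tested epithelial genes such as Epcam (96.2 TPM), Cldn4 (287 TPM) and Spint2 (320 TPM), and of 8 mesenchymal genes, none was called against ctrl.

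A miRNA binds messages that match bases 2 to 8 of its sequence, the seed. The mature mouse sequences of the 3 miRNAs (RefSeq, GRCm38.p6) are shown to place the matches that follow, with the seed in capitals. The mimic named miR-142-5p has the mouse entry miR-142a-5p, from chr11:87756867-87756887 on the plus strand, and miR-183-5p comes from chr6:30169711-30169732 and miR-222-3p from chrX:19146901-19146923, both on the minus strand.
miR-142a-5p: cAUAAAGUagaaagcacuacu
miR-183-5p: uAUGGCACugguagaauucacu
miR-222-3p: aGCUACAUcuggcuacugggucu

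Matches were searched on the sense strand of the annotated 3′ untranslated region, as the complement of bases 2 to 8 or as the complement of bases 2 to 7 followed by A. The letters were ACTTTAT or else CTTTATA for miR-142-5p, and GTGCCAT or else TGCCATA in the case of miR-183-5p. For miR-222-3p they were ATGTAGC or else TGTAGCA, and matches of both kinds that overlap were counted once. The regions of the keratins were short, from 66 bases in Krt18 and 103 bases in Krt19 to 557 bases in Krt6a, with the exception of Krt7 (2648 bases), against a median of 962 bases over 14595 tested genes. Of all 14595 genes, 21.2% held a match to miR-142-5p, 14.7% to miR-183-5p and 16.0% to miR-222-3p. Krt8, Krt18, Krt19, Krt5, Krt14, Krt17 and Krt10 held no match to any of the 3.

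Krt7 was the only tested keratin with a match, to miR-222-3p at chr15:101429598-101429604 on the plus strand (GRCm38), shown here with the matching bases in capitals. Krt6a and Krt1 each held a match to miR-142-5p, at chr15:101690281-101690287 and chr15:101845685-101845691 on the minus strand, and both genes were at or near 0 reads.
Krt7, miR-222-3p: tgcagctcagcTGTAGCAagagaccacag
Krt6a, miR-142-5p: actgctcatctCTTTATAgtcatcctgtg
Krt1, miR-142-5p: gtaacaatcccACTTTATgttctgctgaa

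A match is a description of the sequence and not a measured site. In the tumours that received miR-222-3p, Krt7 had the log2 fold change of -0.25 given above, with a 95% interval from -0.86 to 0.37 and an unadjusted p of 0.431 (adjusted p = 1 by DESeq2).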

How the data were processed

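PolyA RNA of 12 tumours (4 groups of 3, taken from the labels) was sequenced as paired, strand-specific libraries. The authors quantified transcripts with Salmon on GRCm38, and their methods and tables name different Ensembl releases. The deposited tables hold an estimated count of reads (an expected count), a TPM and an effective length per transcript. Of 118783 transcripts, 116710 (98.3%) were matched without version to GENCODE M21 and summed per gene; the unmatched held 0.633% to 0.671% of reads. Libraries had 20285968 to 27021401 reads, and the 12 pairs within groups differed beyond counting noise (chi-square per degree of freedom 15.0 or more).

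Genes that reached 10 reads in 3 or more libraries were tested with DESeq2 1.42.0 (Wald test, counts rounded, length offsets, all libraries in 1 fit on group, Benjamini-Hochberg adjustment, threshold 0.05) in R 4.3.3. Alternatives were edgeR 4.0.16 (quasi-likelihood), limma 3.58.1 on log2(TPM + 1), other normalisations and filters, a library set covariate, a replicate block and leaving out each tumour. Intervals used the SE of the DESeq2 fit, which takes in the spread between tumours. The floor of 3 reads covers counting error only. Correlations between genes used log2(normalised count + 1), and those with list sums used log2(TPM + 1) of the keratin and of the sum. Permutation tests of correlations used 100000 permutations and were two-sided. Near copies were found with BLAST at 95% identity. Members and gene lists were chosen with earlier results of these data known. Named from each list were the 3 genes of highest mean TPM, any called gene and the 2 of lowest unadjusted p against ctrl, with the lists that bear on keratins given here. Of the 6 partner pairs intended, 3 had enough reads. A gene that this rule names is not reported here.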

Additional observations from a re-analysis of the deposited data

How the results depend on the processing

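The count of 0 called keratins held in the 6 comparisons under all 102 alternatives run, including a threshold of 0.1. Most log2 fold changes against ctrl were close to 0, and 42 of 330 alternative values had the other sign, of which 34 came from leaving out 1 tumour; no cause was tested. Without 1 tumour at a time, the values for miR-142-5p ranged from -0.53 to 0.21 (Krt7), -0.16 to 0.11 (Krt8), -0.25 to 0.22 (Krt18), -0.31 to 0.38 (Krt19), -1.10 to 0.57 (Krt14) and -0.23 to 0.086 (Krt10). For miR-183-5p they ranged from -0.093 to 0.48 (Krt7), -0.10 to 0.082 (Krt18), -0.12 to 0.66 (Krt14), -0.074 to 0.97 (Krt17) and -0.14 to 0.12 (Krt10). For miR-222-3p they ranged from -0.47 to 0.11 (Krt7), -0.27 to 1.12 (Krt19), -0.25 to 0.73 (Krt14), -0.20 to 0.84 (Krt17) and -0.15 to 0.11 (Krt10). The ctrl tumour 2, which had the highest Krt7 and Krt8 of all 12, and the miR-142-5p tumour 1 gave many of these extremes. The other 5 of 21 values kept their sign in these settings, among them Krt19 in miR-183-5p (0.53 to 1.57) and Krt8 in miR-222-3p (-0.37 to -0.12).

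With limma on log2(TPM + 1), Krt18 had -0.028 and Krt14 -0.25 in miR-142-5p, and Krt18 had -0.0040 in miR-183-5p. Without the length offset, Krt19 had -0.047 and Krt14 -0.0082 in miR-142-5p. With the library set as a covariate, Krt18 had 0.023 and Krt17 -0.16 in miR-222-3p. That fit can separate the set from miR-222-3p only through miR-183-5p tumour 3, which also carried the skeletal muscle RNA. These values are therefore weak as a correction. The correlation of Krt18 and Krt14 fell to 0.51 without the 2 farthest tumours.

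With the replicate block, the count of called keratins remained 0 in each comparison and Krt14 had -0.025 in miR-142-5p. Tumours with the same number in different groups did not deviate together (mean correlation of deviations -0.04, from -0.44 to 0.22), so the numbers were not taken as pairs. With 3 tumours per group, changes within the 95% intervals of the plot of log2 fold changes remain possible. The intervals are not adjusted for the number of genes tested, so they do not give the size of change that would have passed. Counting error was the smaller part of the spread of Krt14 and Krt19, and for Krt10 it was of the size of the spread.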
